A study of Caenorhabditis elegans with 2 samples.

Results

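The X chromosome regions described here are those listed for HMBX-1 in Caenorhabditis elegans early embryos that lie away from small RNA genes. The pooled list that they come from is relaxed and holds background together with peaks. They are the regions of the pooled list on the X whose summit, the position of highest signal, was more than 250 bp from every annotated tRNA, snoRNA, snRNA, rRNA and miRNA gene. This rule kept 4601 of the 4853 X regions and left out 252; the whole pooled list held 30000 regions, 29978 of them on nuclear chromosomes. Autosomal regions chosen in the same way numbered 24561. Of the 4601 X regions 22 were in the authors' thresholded list and 34.4% were found in both replicate lists. Most are therefore not established binding sites.

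Chromatin immunoprecipitation with sequencing (ChIP-seq) was performed on whole early embryos, 45 min after synchronization by egg bleaching, with the chromatin fragmented by sonication. All embryos were of mixed sex and of strain OP656, genotype unc-119 (tm4063) III; wgIs656, whose integrated transgene encodes HMBX-1 with a GFP-FLAG tag at its C terminus. The 2 samples are biological replicates of this single group, so no conditions were contrasted. The sample description names an antibody against GFP and the antibody field names hmbx-1; the signal is that of a tagged protein in 1 transgenic line, averaged over every cell type of the embryo.

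HMBX-1 is the worm relative of human HMBOX1 (HOT1), a homeobox protein known for binding telomere repeats. In C. elegans, XX animals are hermaphrodites and X0 animals are males, and a dosage compensation complex that is loaded on both X chromosomes of hermaphrodites lowers X transcription during embryogenesis. The X is also poor in genes expressed in the germ line and in genes needed by every cell, many of which lie on the autosomes.

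The strongest X regions had unlike sequences, and 6 windows of 150 bases around summits are shown for that reason, on the plus strand of ce11 (RefSeq sequence of WBcel235). The T13C5.6 and sto-4 windows are those of the 3 highest regions with a protein-coding start within 500 bp, and the ftt-2 windows those of the 2 highest without one. The C24H10.4 window was added after its values were seen, as an example of a tandem repeat. In the T13C5.6 window capitals mark matches on either strand to the words TAGTTA (here outside the 50 bp at the summit in which words are counted below), also to the word GAGAGA, to the word AGTGGT and to the word GTTCNANNC; in the ftt-2 windows they mark the longest run of bases that both share.
T13C5.6, 191 bp upstream, chrX:6207803-6207952: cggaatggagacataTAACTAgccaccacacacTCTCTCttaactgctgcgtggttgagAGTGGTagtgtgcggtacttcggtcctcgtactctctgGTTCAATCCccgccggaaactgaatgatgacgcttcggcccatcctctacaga
sto-4, 162 bp upstream, chrX:11643889-11644038: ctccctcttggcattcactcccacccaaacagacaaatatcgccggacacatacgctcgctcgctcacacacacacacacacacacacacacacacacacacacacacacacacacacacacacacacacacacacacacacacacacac
sto-4, 37 bp inside the gene, chrX:11644088-11644237: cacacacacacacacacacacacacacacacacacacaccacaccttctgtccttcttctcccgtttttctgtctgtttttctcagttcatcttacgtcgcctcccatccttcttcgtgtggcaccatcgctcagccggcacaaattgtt
ftt-2, 517 bp upstream, chrX:11605861-11606010: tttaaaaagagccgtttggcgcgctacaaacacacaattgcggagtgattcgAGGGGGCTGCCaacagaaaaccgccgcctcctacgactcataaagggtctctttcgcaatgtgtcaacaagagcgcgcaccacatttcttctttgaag
ftt-2, 727 bp upstream, chrX:11606071-11606220: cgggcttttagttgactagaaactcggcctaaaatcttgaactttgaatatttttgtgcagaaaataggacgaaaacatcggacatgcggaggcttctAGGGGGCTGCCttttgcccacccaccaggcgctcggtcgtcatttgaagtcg
C24H10.4, 2846 bp from its start, chrX:5056342-5056491: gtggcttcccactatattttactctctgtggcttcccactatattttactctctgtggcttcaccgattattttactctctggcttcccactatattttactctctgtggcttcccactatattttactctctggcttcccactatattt

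The authors' thresholded list, derived from the replicate and pooled lists by irreproducible discovery rate (IDR), contained 22 of the 4601 X regions. The background over all nuclear regions of the pooled list was 1.39 percent thresholded, and over all regions away from small RNA genes, on any nuclear chromosome, 0.713 percent. The X share was 0.478% (95% exact interval 0.300 to 0.723%), against 0.757% (0.653 to 0.874%) of the autosomal regions, 186 of 24561. The odds ratio of 0.630 missed the threshold by the two-sided Fisher's exact test with Benjamini-Hochberg adjustment over 8 tests (p = 0.0443, adjusted p = 0.0886). Regions of a chromosome are not independent, such p-values compare the regions of these lists and not conditions, and setting 1 X against 5 autosomes as whole chromosomes could give no exact permutation p below 0.167.

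Signal, the authors' peak-caller value per region, is used below only to order regions within a list. The 22 thresholded X regions had pooled signals from 98.97 to 486.8 with a median of 116.9, and the 186 autosomal ones a median of 119.2. Overlapping regions counted once left 19 X loci. Every one of the 22 was overlapped by a region in each replicate's own list, as was every one of the 186 autosomal ones. The thresholded list was itself made by IDR from these lists, so the overlap is no separate support. The replicate lists were called separately, so a level in one is not comparable with a level in the other; across the 22 regions the replicate values had a Spearman rho of 0.44 and a Pearson r of 0.873, a description over regions in which neighbouring regions can share a replicate region.

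The highest X signal lay upstream of ftt-2, which encodes a 14-3-3 adaptor protein that binds phosphorylated partners. The summit at position 11605936 had a pooled signal of 486.8, with 299.0 in replicate 1 and 195.7 in replicate 2, and lay inside F52D10.7, an annotated ncRNA gene at chrX:11605853-11605989. The next summit, at 11606146, had a pooled signal of 352.9, fell in the same replicate regions and lay inside F52D10.9, an ncRNA gene at chrX:11606129-11606277. Both ncRNA genes lie beyond the ftt-2 start, and the nearest small RNA gene of the classes that the rule left out was a tRNA gene 39537 bp from the second summit. The 2 windows printed above share the 11-base run AGGGGGCTGCC. It occurred on either strand within 50 bp of the summit in 2 of all 29162 regions away from small RNA genes. Those 2 are these same ftt-2 regions, from which the run was taken, so the count is no test of a motif.

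The third summit, 5056417, had a pooled signal of 289.3, with 213.3 in replicate 1 and 98.6 in replicate 2. It lay between genes, 2846 bp from the start of C24H10.4, in sequence that the reference masks as repeat over 100% of the window within 50 bp of the summit. At a spacing of 52 bp, 78.6% of the compared bases of the window printed above matched. The unit repeated in the printed bases is shorter, so 52 bp is not the length of the repeat unit. T13C5.6 followed with 265.6 in the pooled list, 181.2 in replicate 1 and 84.3 in replicate 2; its summit lay inside the ncRNA gene C14F11.14.

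A pair of overlapping regions lay at the start of sto-4, a gene of the stomatin family of membrane proteins. The upstream summit had a pooled signal of 232.5 and the summit inside the gene 154.7, and both shared replicate values of 141.4 and 91.5 for replicates 1 and 2. The sequence there carries a run of the dinucleotide CA, 172 bp long within the second region. The first region holds 68 bp of this same run, up to the end of that region. A run of 152 bp also lay in the region 587 bp upstream of spat-3, which encodes a RING finger protein that takes part in histone ubiquitination; its pooled signal was 144.4, with 67.4 in replicate 1 and 77.97 in replicate 2. The spat-3 summit lay inside 2 ncRNA genes, T13H2.7 and T13H2.9.

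Several other thresholded X regions lay inside ncRNA genes far from any protein-coding start. C30E1.9, an ncRNA gene, held 2 of them, with pooled signals of 191.1 at position 16930053 and 131.0 at position 16944365. The first had 75.2 in replicate 1 and 117.3 in replicate 2. The summit of 116.4 near idpp-9 lay inside T22B2.9 and T22B2.12, and that of 114.6 in an intron of vav-1 lay inside C35B8.6. In replicates 1 and 2 the idpp-9 region had 61.2 and 58.8, and the vav-1 region 75.5 and 41.5.

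The remaining promoter regions lay at genes of varied roles. The gly-13 region, 131 bp upstream of a gene for an N-acetylglucosaminyltransferase of N-glycan synthesis, had 125.7 in the pooled list, 79.8 in replicate 1 and 46.9 in replicate 2. The mans-3 region, 106 bp upstream of a gene for a mannosidase, had 106.6, 73.6 and 35.8 in these lists. The sec-3 region, upstream of the gene for a subunit of the exocyst, which tethers secretory vesicles to the plasma membrane, had 108.3, 77.5 and 32.2. The gly-13 value lay above the median pooled signal of the thresholded X regions, and the mans-3 and sec-3 values below it.

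his-24, which encodes a linker histone H1, had its summit 159 bp inside the gene, with 110.2 in the pooled list, 65.2 in replicate 1 and 49.2 in replicate 2. rpl-11.2, which encodes a protein of the large ribosomal subunit, had its summit 395 bp upstream, with 98.97, 65.0 and 27.1. C05G5.2, ZK816.3 and F59C12.4 had pooled signals of 117.4, 110.5 and 105.5 at promoters, and the ZK816.3 summit lay inside the ncRNA gene ZK816.8. The other thresholded regions were a pair 1367 and 1665 bp from the start of F18E9.1, with 99.2 and 115.3, and an intronic region of scd-1 with 104.7.

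**Figure D1:**
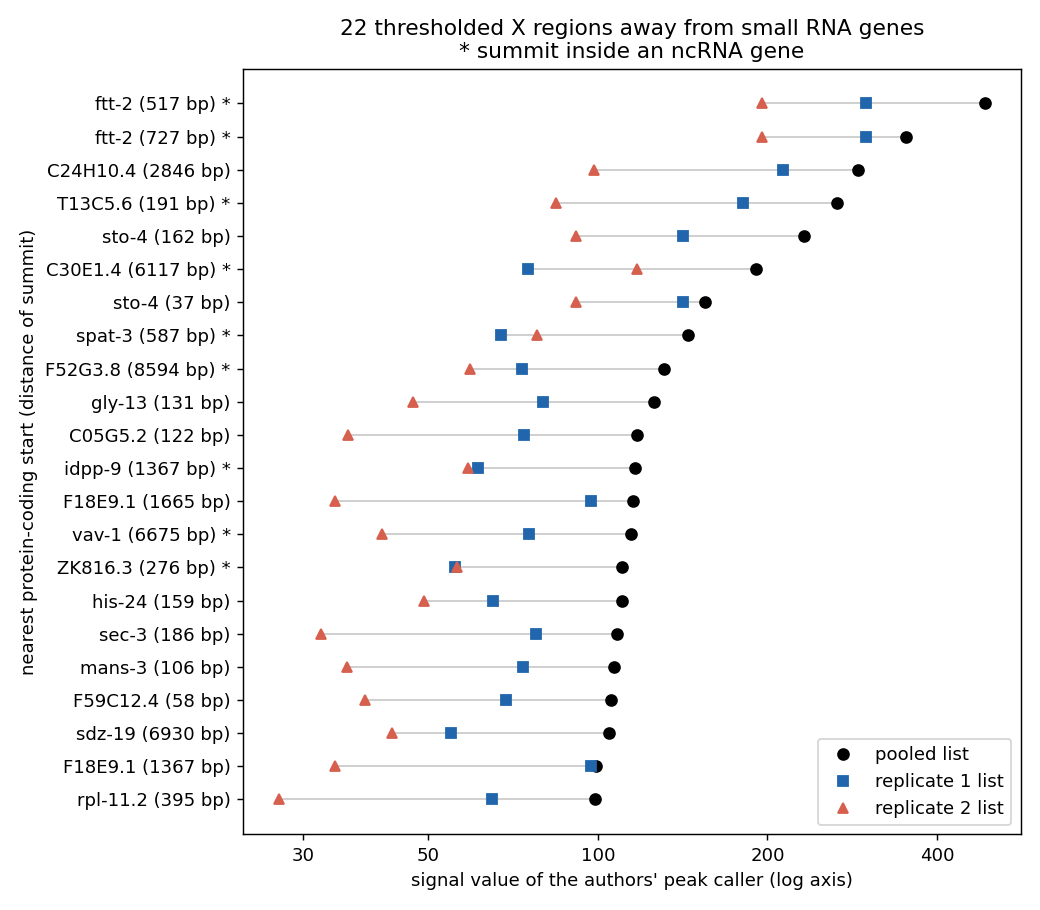
Each row is 1 of the 22 thresholded X regions, named by the nearest protein-coding start with its distance in bp, and the points are its signal in the pooled list and in the regions of each replicate list that overlap it (log axis; no error bars, 1 value per list). The pooled values run from 98.97 to 486.8, the replicate lists were called separately, so their levels are not compared, and the 9 rows with an asterisk have their summit inside an ncRNA gene.

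Signal over all regions differed little between the X and the autosomes at the middle of the distribution and more at its top. The median was 30.01 on the X and 30.6 over the autosomes, where single chromosomes ranged from 29.8 (V) to 31.3 (III). The 99th percentile was 78.1 on the X, below each autosome's (82.8 to 93.7). Of the X regions 48.1% lay above the median of all chosen regions, against 50.4% on the autosomes (odds ratio 0.912, two-sided Fisher's exact test, adjusted p = 0.0113). This call was lost when chromosome III was left out (odds ratio 0.941, Fisher's exact test, adjusted p = 0.133) or when regions in masked sequence were (0.941, adjusted p = 0.225), and chromosome V had the lower share, 46.9%.

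**Figure D2:**
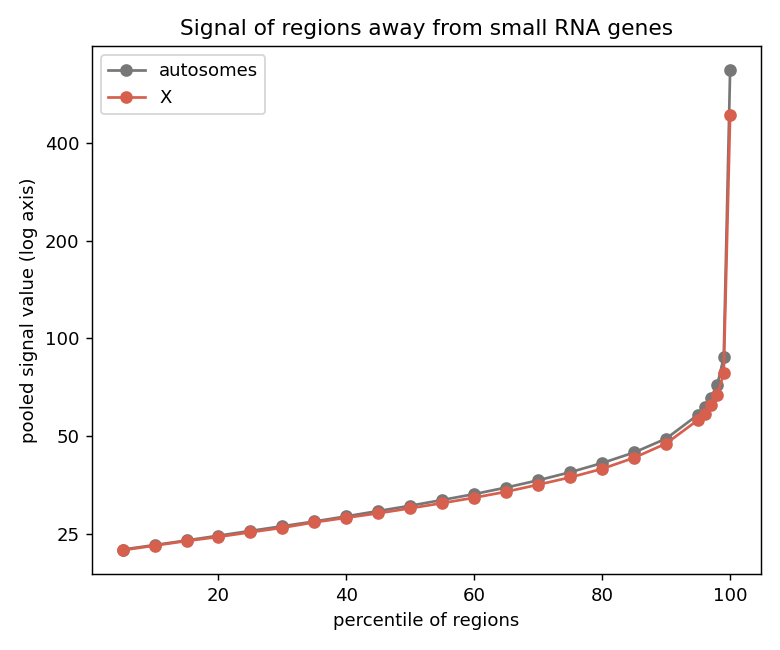
The curves give the pooled signal (log axis) at each percentile of the 4601 X regions and of the 24561 autosomal regions. They lie together around the median, 30.01 against 30.6, and separate toward the 99th percentile, 78.1 against 87.4.

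Chromosome V was close to the X in thresholded share, signal and share found in both replicates, but not in promoter share, of which it had the highest, 26.6%. Its thresholded share was 0.495%, and the other autosomes ranged from 0.721% (IV) to 0.958% (II). In comparisons with single autosomes, chosen after the values were seen and adjusted over 20 Fisher's exact tests, the X had a lower thresholded share than II (adjusted p = 0.0108) and III (0.0452), and the tests against I (0.0751), IV (0.184) and V (1) missed the threshold. Without chromosome V the X share was lower than that of the other 4 autosomes (odds ratio 0.577, Fisher's exact test, adjusted p = 0.0276). The X had 1.26 thresholded regions per Mb and V 1.20, and the other autosomes ranged from 2.07 (IV) to 2.99 (III).

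Fewer X than autosomal regions were found in both replicate lists. The counts were 1582 of 4601 (34.4%) on the X and 9661 of 24561 (39.3%) on the autosomes, an odds ratio of 0.808 (two-sided Fisher's exact test, adjusted p = 8.24e-10). Against single autosomes the X share was lower than that of I to IV, and the test against V, with 35.3%, missed the threshold (Fisher's exact test, adjusted p = 0.365). On the X 68.9% of regions were overlapped in replicate 1 and 54.3% in replicate 2, whose list was the shorter with 22915 regions against 25401, and 11.2% were in neither. Regions found in both had a median pooled signal of 37.8 and the others 27.9.

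**Figure D3:**
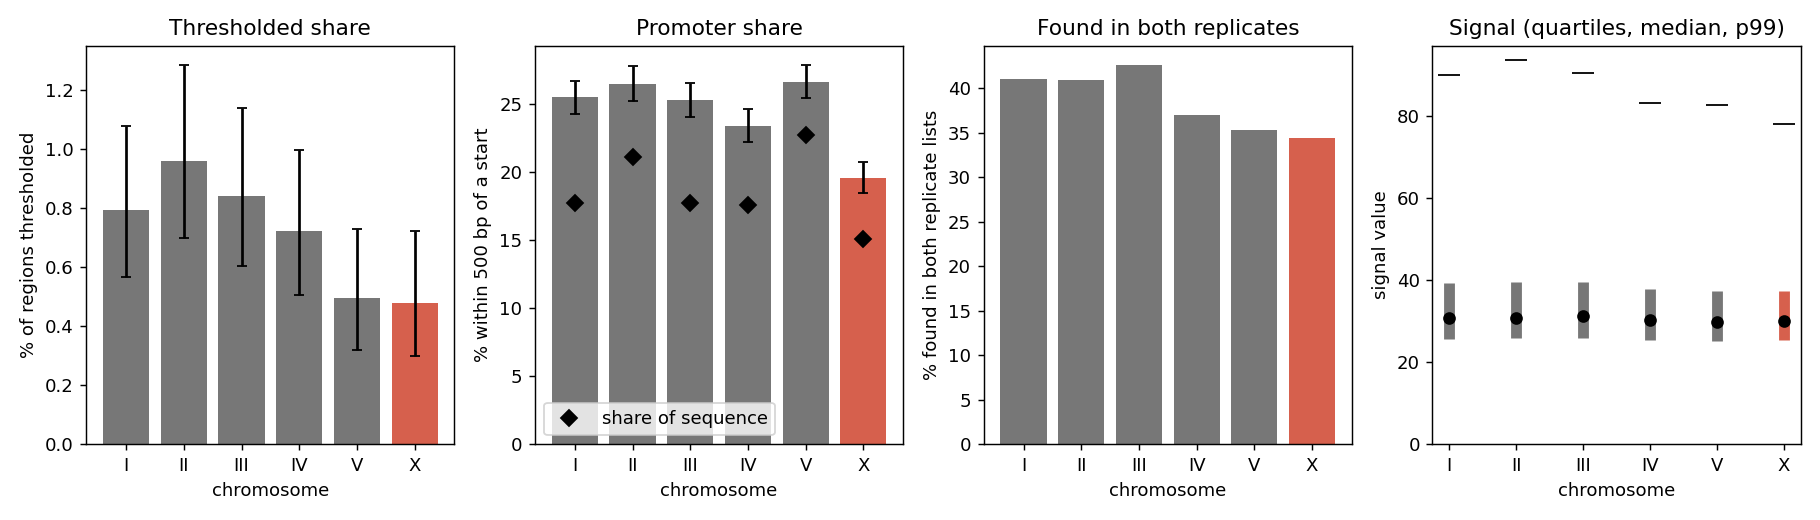
Panels show, for regions away from small RNA genes on each chromosome, the thresholded share and the promoter share (bars, with 95% exact Clopper-Pearson intervals), the share found in both replicate lists (bars, no interval), and the signal (bar, quartiles; point, median; dash, 99th percentile). Diamonds mark the share of sequence within 500 bp of a start; the X has the lowest promoter share, 19.6%, and also the lowest diamond, 15.1%.

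A smaller share of X regions lay at promoters, defined as within 500 bp of the start of a protein-coding gene. The counts were 901 of 4601 (19.6%, 18.4 to 20.8%) on the X and 6246 of 24561 (25.4%, 24.9 to 25.98%) on the autosomes. The odds ratio was 0.714 (two-sided Fisher's exact test, adjusted p = 5.33e-17), and the X was below each of the 5 autosomes (largest adjusted p 1.35e-05, against IV). The X also has fewer genes per length, 154.1 protein-coding genes per Mb against 187.6 to 238.7 on the autosomes, and 15.1% of its sequence lies within 500 bp of a start against 19.6%. Promoter regions were therefore 1.30 times their share of sequence on the X and 1.30 times on the autosomes, with single autosomes from 1.17 (V) to 1.44 (I).

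Promoters held a large part of the thresholded regions on both kinds of chromosome. On the X they held 11 of 22 (50%), 3.32 times the share of sequence, and on the autosomes 118 of 186 (63.4%), 3.24 times. The difference between X and autosomes missed the threshold (odds ratio 0.576, Fisher's exact test, adjusted p = 0.332). The odds ratio was 0.307 with only the upper 50% of the thresholded list and 0.910 without masked regions. Nor did the thresholded share pass the threshold within promoters, where 1.22% of X and 1.89% of autosomal regions were thresholded (odds ratio 0.642, Fisher's exact test, adjusted p = 0.290), and outside them, with 0.297% and 0.371% (0.800, adjusted p = 0.650). Among regions also over 250 bp from ncRNA genes these odds ratios were 0.411 within promoters and 0.405 outside. They rest on 6 of 814 and 4 of 3368 X regions and also missed the threshold (Fisher's exact test, adjusted p = 0.054 and 0.154). The odds ratio outside promoters was 0.426 without masked regions and 1.08 with the upper 50% of the thresholded list.

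Divergent promoters, where the summit lay between 2 genes that start head to head under 2000 bp apart, were scarcer among X regions. They made up 65 of the 901 X promoter regions (7.21%) and 1006 of the 6246 autosomal ones (16.1%), an odds ratio of 0.405 (Fisher's exact test, adjusted p = 4.97e-13 over 8 comparisons chosen after the values were seen). Of the thresholded promoter regions 0 of 11 on the X were divergent, which allows a share of up to 27.3%, against 63 of 118 (53.4%) on the autosomes (Fisher's exact test, adjusted p = 0.00127). That limit does not set the 11 apart from the 7.21% of all X promoter regions. The share of divergent starts over all genes was not worked out, and the X has fewer genes per length. These shares are therefore not corrected for how genes are arranged. The summit lay upstream of the start in 9 of the 11 X regions and 105 of the 118 autosomal ones, at a median of -131 bp and -165.5 bp from the start, counted as negative upstream.

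The places of the X regions apart from promoters differed little from the share of sequence in introns and between genes. Introns held 27.3% of regions and 27.2% of sequence, and intergenic sequence 36.8% and 34.4%. Coding exons held 7.93% of regions and 16.5% of sequence. None of the 365 coding-exon and 257 untranslated-exon regions was thresholded, which allows up to 0.822% and 1.17%. Each region was given 1 place, with promoters and the exons and introns of protein-coding genes taken first. Of the regions left over, 129 lay in genes that do not code for protein, with 6 thresholded (4.65%), against 2 of 1254 in introns and 3 of 1695 between genes.

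**Figure D4:**
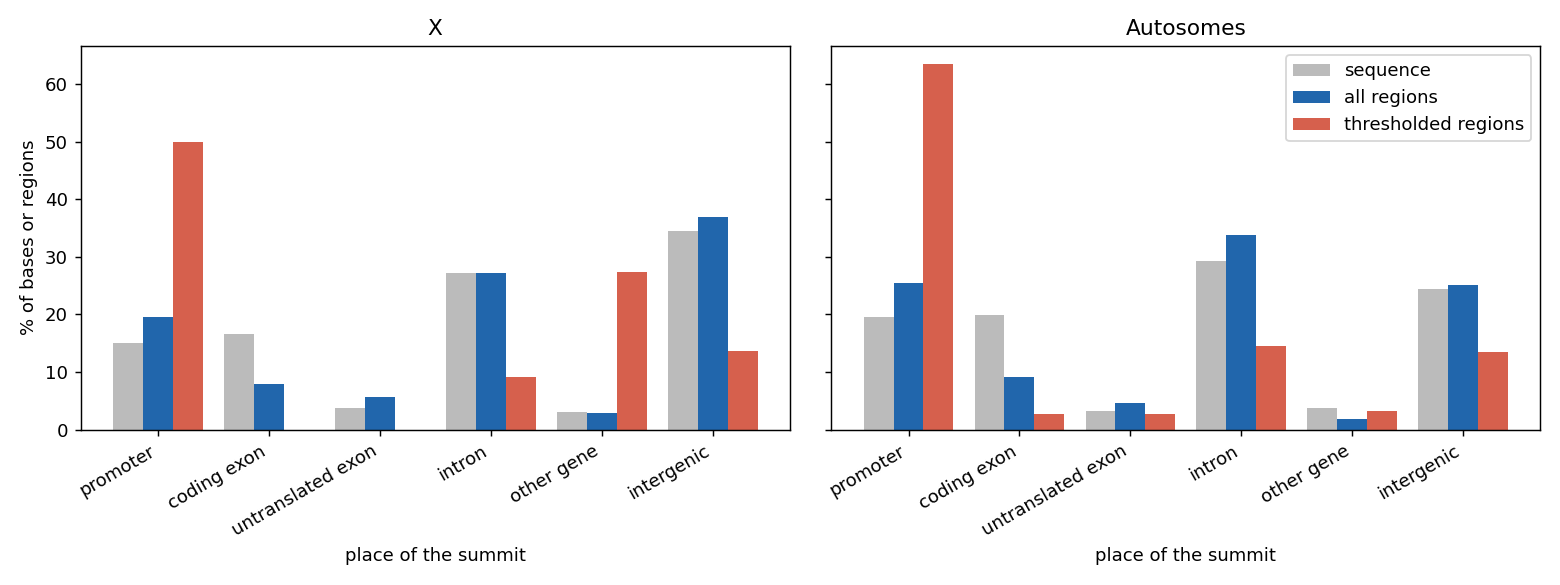
Bars give the share of sequence, of all regions away from small RNA genes and of the thresholded ones by the place of the summit, on the X (left) and on the autosomes (right), with no error bars. On the X 50% of the thresholded regions were at promoters and 27.3% in genes that do not code for protein and outside promoters and protein-coding genes; coding and untranslated exons had none.

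Annotated ncRNA genes, a class of mostly uncharacterized transcripts that the choice of regions did not leave out, held 9 of the 22 thresholded X regions (40.9%). On the autosomes they held 17 of 186 (9.14%), an odds ratio of 6.88 (Fisher's exact test, adjusted p = 0.000849, chosen after the values were seen). The X has 2520 such genes, over 1.93% of its sequence, and the autosomes 5244 over 0.845%, and among all X regions 3.13% were inside one against 1.46% (odds ratio 2.18, Fisher's exact test, adjusted p = 8.73e-13). Within ncRNA genes 9 of 144 X regions (6.25%) and 17 of 358 autosomal regions (4.75%) were thresholded, a difference that missed the threshold (Fisher's exact test, adjusted p = 0.507). Outside them the X share was lower, 13 of 4457 (0.292%) against 169 of 24203 (0.698%), an odds ratio of 0.416 (Fisher's exact test, adjusted p = 0.0015). These tests counted each region separately. The 9 included both ftt-2 regions, which overlap each other, and both regions inside the single ncRNA gene C30E1.9 (chrX:16929914-16944683).

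GC content was described within 50 bp of each summit. The median was 50.5% in the 22 thresholded X regions and 33.7% in the rest, and on the autosomes 44.6% and 33.7%. In 4 of the 22 fewer than 50% of 8-base words were distinct (18.2%, 5.19 to 40.3%), against 7 of 186 on the autosomes (3.76%) and 0.371% of the other X regions. These 4 were the C24H10.4 region, the upstream sto-4 region, the spat-3 region and the lower of the F18E9.1 pair. Sequence masked as repeat over more than 50% of the window was found in 8 of 22 X (36.4%) and 49 of 186 autosomal (26.3%) thresholded regions (Fisher's exact test, adjusted p = 0.367). Among regions not thresholded the shares were 26.8% on the X and 41.2% on the autosomes, and over all regions away from small RNA genes 38.8%. The part of repeated sequence in the signals was not tested.

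Short words were counted on both strands in the same windows, where words can overlap each other. TTGCAA was in 1 of the 22 thresholded X regions (4.55%), that of sec-3, and in 38 of 186 autosomal ones (20.4%), against 5.61% of all regions away from small RNA genes; the difference missed the threshold (Fisher's exact test, adjusted p = 0.113). GTTCNANNC, the letters of the B box that RNA polymerase III factors read within tRNA genes, was in 4 of 22 (18.2%), 10 of 186 (5.38%) and 2.93% of all. The 4 were the regions of T13C5.6, idpp-9 and ZK816.3, all inside ncRNA genes, and that of F59C12.4. AGTGGT was in 3 of 22 against 875 of all 29162, GAGAGA in 3 of 22 against 6.17% and GTTCGA in 1 of 22 against 3.04%. TAGTTA, like CGCAGG, was in 0 of 22, which allows up to 13.6%, against 4.19% and 1.14% of all. A count of 0 thus does not set the 22 apart. These counts are descriptions of letters in the window.

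Regions close to small RNA genes, which the choice left out, are given for comparison. Within 250 bp 70 of 252 X regions (27.8%) and 138 of 564 autosomal regions (24.5%) were thresholded. In the last 100 bp before that limit 0 of 48 X regions were, which allows up to 6.25%, with a median signal of 41.1. In the first 100 bp beyond it 0 of 8 were, which allows up to 37.5%, with a median of 24.1. Farther out the shares were 8 of 515 (1.55%, 0.673 to 3.04%) from 1000 to 5000 bp and 13 of 4004 (0.325%, 0.173 to 0.555%) beyond 5000 bp.

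Regions were spread along the whole X. In the 17 full bins of 1 Mb, density ran from 215.5 to 322.7 regions per Mb and the median signal from 28.0 to 31.3. The lowest promoter share, 11.0%, and the highest, 26.3%, fell in bins 17 and 12. These also had the lowest and highest share of sequence near a start, 10.6% and 18.5%. Not every bin kept this order: bin 16 had 20.8% of regions at promoters with 13.1% of sequence, and bin 2 had 14.2% with 14.8%. The relation over all bins was not tested. The share found in both replicates was lowest, 21.2%, in the leftmost bin. Thresholded regions reached 4 in bin 12, which holds both ftt-2 and both sto-4 regions. The middle of 3 equal lengths of the X had 9 of 1406 regions thresholded (0.640%) and the rest 13 of 3195 (0.407%), an odds ratio of 1.58 (two-sided Fisher's exact test, adjusted p = 0.403). It was 1.05 with overlapping regions counted once and 3.80 with only the upper 50% of the thresholded list. The latter missed the threshold (Fisher's exact test, adjusted p = 0.0996) and rests on 5 thresholded regions in the middle and 3 in the rest. The 5 include the overlapping ftt-2 and sto-4 pairs.

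**Figure D5:**
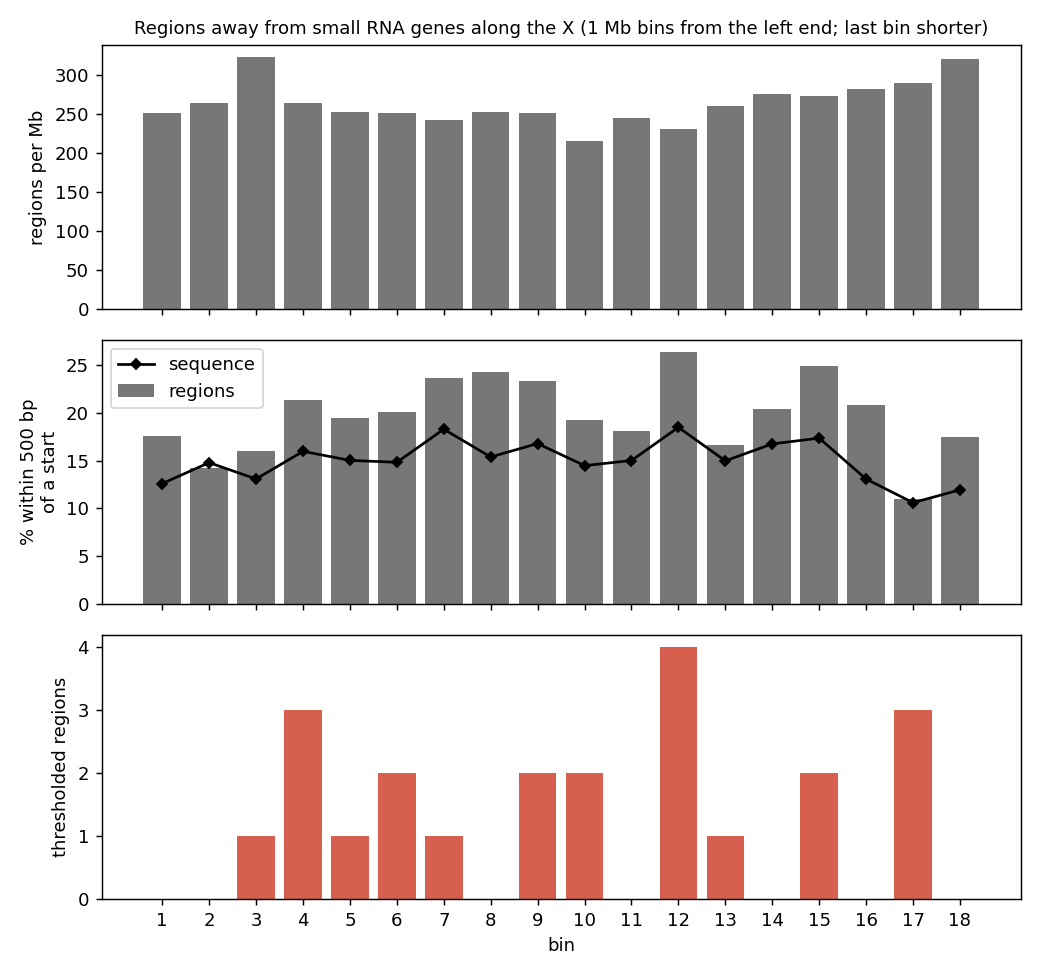
Regions per Mb, promoter share of regions (bars) with that of sequence (line), and number of thresholded regions are shown in 1 Mb bins from the left end of the X, the last bin being shorter. Density ranged from 215.5 to 322.7 per Mb over the 17 full bins, and bin 12 had the most thresholded regions, 4.

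By gene, 765 of 2731 X protein-coding genes (28.0%) had a region within 500 bp of a start, against 5578 of 17242 autosomal genes (32.4%). Any region of the relaxed list counts here, so having one is not by itself evidence of binding. A region near the starts of several genes counts for each of them. Of genes with such a region on any nuclear chromosome 2.62 percent had a thresholded one; on the X there were 10 of 765, namely T13C5.6, sto-4, gly-13, C05G5.2, ZK816.3, his-24, sec-3, mans-3, F59C12.4 and rpl-11.2. The median of each gene's highest signal was 32.3 on the X and 33.8 on the autosomes.

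Thresholded regions were found at X genes of 2 of the lists. Of 6 X genes for sex determination and dosage compensation 4 had a region, none thresholded, with signals of 23.1 at ceh-39, 22.9 at sdc-1 and 22.4 at sdc-2. Their median was 22.6, against 36.8 for the 10 autosomal genes of that list with a region and 32.3 for all X genes with one. Of these, ceh-39 is an X signal element that counts X chromosomes, and the sdc genes recruit the dosage compensation complex to the X. Of 25 homeobox genes 8 had a region, with the highest signals at ceh-41 (58.7), ceh-93 (46.3) and lim-4 (43.7). Of 27 nuclear hormone receptor genes 7 had one, led by nhr-32 (41.8), and of 9 genes of the GATA factor and intestine list 1 did, elt-2 (24.9), the main transcription factor of the intestine.

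Genes of differentiated tissues had regions in the following numbers. Of 30 collagen genes 5 had a region, led by col-9 (49.5), of 34 neuropeptide genes 8, led by nlp-23 (51.3), and of 32 ligand-gated channel genes 7, led by acr-9 (51.9). Of 20 potassium channel genes 5 had one, led by kqt-1 (35.3), and of 11 muscle genes 3, led by tni-1 (45.5), a troponin I. Of all X protein-coding genes 765 of 2731 (28.0%) had a region, the share to read these counts against. None of these regions was thresholded. Of all X genes with a region 10 of 765 had a thresholded one, and at that share few or none would be found among so few genes. The 2 lists with a thresholded member gave rpl-11.2 (98.97) among the 2 X ribosomal protein genes, the other being rpl-25.1 (45.0), and his-24 among 4 X histone genes. On the autosomes 9 of the 57 ribosomal protein genes with a region and 7 of the 24 histone genes with one had a thresholded region, beside 156 of 5578 of all autosomal genes with a region. Genes are counted here and not regions: only 118 thresholded autosomal regions lay at promoters, so some counted for several genes. How many regions the genes of each list share was not worked out.

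Just below the threshold, the 10 highest X regions that were not in the thresholded list had pooled signals from 85.2 to 93.3. They included a region at the start of hil-3, an H1-like linker histone gene (89.3 pooled, 32.1 in replicate 1 and 60.2 in replicate 2), and a region at act-4, an actin gene (86.8, 47.7 and 36.8). The puf-9 region (86.9), at a gene for an RNA-binding protein of the Pumilio family, lay in a divergent promoter and inside the ncRNA genes W06B11.7 and W06B11.9. The region near cyp-13B2, a cytochrome P450 gene, had 91.5; its summit lay inside the ncRNA gene K06G5.6, and the region held a CA run of 178 bp. The rest were nearest to B0302.2 (93.3), C14A11.9 (89.3), skr-19 (87.6), ugt-50 (87.4), ztf-13 (87.2) and gtr-1 (85.2), and none of the 10 overlapped a thresholded region.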

How the data were processed

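Region lists in narrowPeak format were analysed for 2 biological replicates of 1 group. Per the file notes, the authors called relaxed lists of peaks with background for each replicate and for both pooled, against 1 shared control, and made a thresholded list by IDR. The deposited signal value per region and the deposited −log10 q-value are the authors' own and served only to order and describe regions within a list; the deposited summit offset, a score in bp from the region's start, gave each position. Details of alignment, peak calling, the IDR threshold and multi-mapping reads were not given in the sources used here, so depth is unknown. The labels do not say how the replicates were grown.

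Positions are on ce11, 1-based. Gene models came from Ensembl release 115 (WBcel235) and bases and repeat masking from RefSeq. All 437 thresholded regions matched a relaxed region by summit. Counts were compared by two-sided Fisher's exact tests in Python 3.11.15 with SciPy 1.17.1, adjusted by Benjamini-Hochberg over 8 tests with a threshold of 0.05, with code tested on simulated data. Intervals are 95% exact Clopper-Pearson; intervals and limits for 0 (3 counts) cover the counting of regions only. Named are all thresholded X regions, the 10 next by signal, and up to 3 X genes of highest signal per list among 13 lists.

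The members, lists and tests were chosen with earlier results of these data known. The comparisons with single autosomes, 8 further comparisons, 3 of the 7 words counted (GTTCGA; the word AGTGGT; the word GTTCNANNC), measures of repeats and the C24H10.4 sequence were added after values were seen. Alternatives changed the distances, overlap rule, lists, chromosomes and replicates used.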

Additional observations from a re-analysis of the deposited data

How the results depend on the processing

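Odds ratios of the X against the autosomes kept their direction in every alternative except 1. The thresholded share, short of the threshold as reported (0.630), passed it in 6 of 15 settings: regions also over 250 bp from ncRNA genes (0.355), only the middle of 3 equal lengths of each autosome (0.574), overlapping regions counted once (0.563), any overlap with a thresholded region (0.567), and, chosen after seeing the data, chromosome V left out (0.577) and masked regions left out (0.437). Its adjusted p ranged from 0.00123 to 0.359. The thresholded share at promoters passed with any overlap (0.549, Fisher's exact test, adjusted p = 0.0422, range to 0.496). The thresholded share outside promoters, never called, turned from 0.800 to 1.08 with only the upper 50% of the thresholded list, and was 0.405 away from ncRNA genes and 0.426 without masked regions. Also never called, the promoter share of thresholded regions ranged from 0.307 to 0.910 and the middle of the X against the rest from 1.05 to 3.80. The share above the median signal lost its call without chromosome III (0.941, Fisher's exact test, adjusted p = 0.133) and without masked regions (0.941, adjusted p = 0.225). The causes were not tested. The promoter share (0.534 to 0.753) and the share in both replicates (0.774 to 0.836) passed the threshold in all 15 and 12 settings. No paired analysis was possible because both replicates belong to 1 group. Read depth is unknown, and 22 thresholded regions limit every comparison among them.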
